A study of Mus musculus with 4 samples.

Results

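The 8 genes described here encode the transcriptional coactivators YAP (Yap1) and TAZ (Wwtr1), the DNA-binding TEAD factors (Tead1, Tead2, Tead3 and Tead4) and the TEAD-binding cofactors Vgll3 and Vgll4. They were measured in mouse embryonic fibroblasts (MEFs) cultured at low or high density. The array annotation gave 11 probes under these symbols, among 41174 distinct probes outside the controls, with 5 of the genes read by 1 probe and 3 (Wwtr1, Tead2 and Vgll3) by 2. The array symbol Taz names tafazzin, a different gene, and was not used for TAZ.

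The cells were embryonic fibroblasts of C57BL/6J mice, with the genotype given as Lats2-/- (called KO here) or Lats2+/+ (WT). The labels name no agent in any group. Low density RNA was taken at 48 hours, before confluence, and high density RNA after 3 to 5 days, so that density and time in culture cannot be told apart. The RNA of both densities of a genotype was hybridised to the same array. There were 4 two-colour Agilent whole mouse genome arrays, and in each genotype the dyes Cy3 and Cy5 were swapped between the first and the second array. A pair was taken as a technical repeat of 1 sample, so that with 1 replicate per genotype neither a density effect in a genotype nor a difference between genotypes could be tested. The labels do not say whether a genotype was 1 embryo, 1 line or a pool.

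In the Hippo pathway the kinases LATS1 and LATS2 phosphorylate YAP and TAZ, which are then held in the cytoplasm or degraded. When the kinases are inactive, as in sparse cultures, YAP and TAZ enter the nucleus and bind TEAD factors, which carry them to their target genes. VGLL proteins bind TEAD factors too, and VGLL4 can displace YAP from them. This control acts on protein location and stability, and the arrays measured the mRNA alone.

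The share of features well above background in a channel ran from 52.8% to 67.7%, highest on the first KO array, and 0 features were saturated. Both WT arrays shared a slide and a scan, whereas the KO arrays lay on separate slides scanned apart, so that slide and genotype cannot be told apart. Most Lats2 probes went against the labels. Of 4 probes, 3 gave more signal on the arrays labelled KO, with log2 differences of 1.38, 1.39 and 1.19 at low density and of 1.49, 1.34 and 0.91 at high density. The fourth, A_52_P425064, gave less (-0.63 in sparse cells and -1.26 in dense ones), past 2-fold in the direction of the label only in the latter. Which exons the probes read was not settled, so that KO and WT below mean only the label. Fibroblast markers were well above background in all 8 channels for 8 of 8 genes, with a summed normalised intensity between 223243 and 623949 in the 4 RNA samples. The summed intensity of the macrophage list lay between 394.1 and 426.6, with Emr1, Ptprc and Itgam well above background in no channel, Csf1r in 6 and Cd68 in all 8. The endothelial list lay between 263.1 and 294.9 (Pecam1 and Cdh5 in no channel, Tek in 1 and Kdr in 2), the epithelial list between 267.9 and 333.5 (Cdh1 and Krt8 in no channel, Krt5 and Krt18 in 2 each), and the skeletal muscle list between 253.6 and 262.2 (Myf5, Myog and Des in no channel, Myod1 in 1). Normalised intensity carries an added offset of 50, so probes above background in no channel still add to these sums. Pecam1, for one, was at a log2 of 5.97 in WT at low density.

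The regions upstream of 4 members are shown first, those with a probe past 2-fold in some contrast (Wwtr1, Tead2 and Vgll3) or at 1.99-fold (Yap1), with the letters GGAATG that TEAD factors are known to bind. RefSeq promoter windows of GRCm38.p6, from 250 bases before to 50 after a transcript start, were found for 6 of the 8 members. Tead1 and Tead4 have no entry in that table. The 250 bases before the start are given below, 5′ to 3′ on the strand of the gene, with GGAATG or its reverse complement CATTCC in capitals.
Yap1, chr9:8004597-8004846, minus strand: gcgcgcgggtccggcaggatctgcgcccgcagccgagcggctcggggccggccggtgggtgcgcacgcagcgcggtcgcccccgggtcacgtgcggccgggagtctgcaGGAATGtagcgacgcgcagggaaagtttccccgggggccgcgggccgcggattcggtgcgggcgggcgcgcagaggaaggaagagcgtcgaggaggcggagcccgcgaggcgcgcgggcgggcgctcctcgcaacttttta
Wwtr1, chr3:57575911-57576160, minus strand: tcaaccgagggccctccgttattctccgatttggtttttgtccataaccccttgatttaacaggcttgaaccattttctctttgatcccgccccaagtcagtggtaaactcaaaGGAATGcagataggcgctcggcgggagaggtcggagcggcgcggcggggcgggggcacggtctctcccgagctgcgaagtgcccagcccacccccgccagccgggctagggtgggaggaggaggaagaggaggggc
Tead2, chr7:45215542-45215791, plus strand: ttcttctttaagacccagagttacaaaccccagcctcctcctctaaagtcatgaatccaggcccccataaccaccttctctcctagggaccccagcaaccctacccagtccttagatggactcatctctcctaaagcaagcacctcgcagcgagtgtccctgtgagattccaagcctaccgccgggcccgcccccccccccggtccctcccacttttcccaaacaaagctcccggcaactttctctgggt
Vgll3, chr16:65814939-65815188, plus strand: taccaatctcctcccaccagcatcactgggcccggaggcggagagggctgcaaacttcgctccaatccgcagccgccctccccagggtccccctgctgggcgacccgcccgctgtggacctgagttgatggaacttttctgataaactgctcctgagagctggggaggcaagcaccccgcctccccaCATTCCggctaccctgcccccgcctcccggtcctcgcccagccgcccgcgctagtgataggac
The hexamer, searched on both strands, stood at base -141 from the start in Yap1, at -136 in Wwtr1 and at -63 in Vgll3, and was not in the window of Tead2. It was also at -82 in Vgll4 and in 2 of 3 windows of Tead3. That made 5 of 6 member genes with the hexamer in at least 1 window, where 16.6% of 27025 genes in the table had it (14.7% of 32851 windows). Overlapping windows of a gene share their bases, and a match in letters is not a binding site. The arrays held no measurement of binding at these letters.

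Levels are given as normalised log2 intensity in the order of the first and the second array of a pair. The low density RNA was in Cy3 on the first array and in Cy5 on the second. A level can be set against the same probe in another sample but not against another probe. In these bulk samples fewer cells of a type and less RNA per cell cannot be told apart. A probe was said to rise or fall, or to pass the rule, at a mean log2 difference of 1 or more in either direction (2-fold) whose sign both arrays or dyes shared. All 8 channels were well above background for 10 of the 11 probes, and 4 channels for Tead1.

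**Figure D1:**
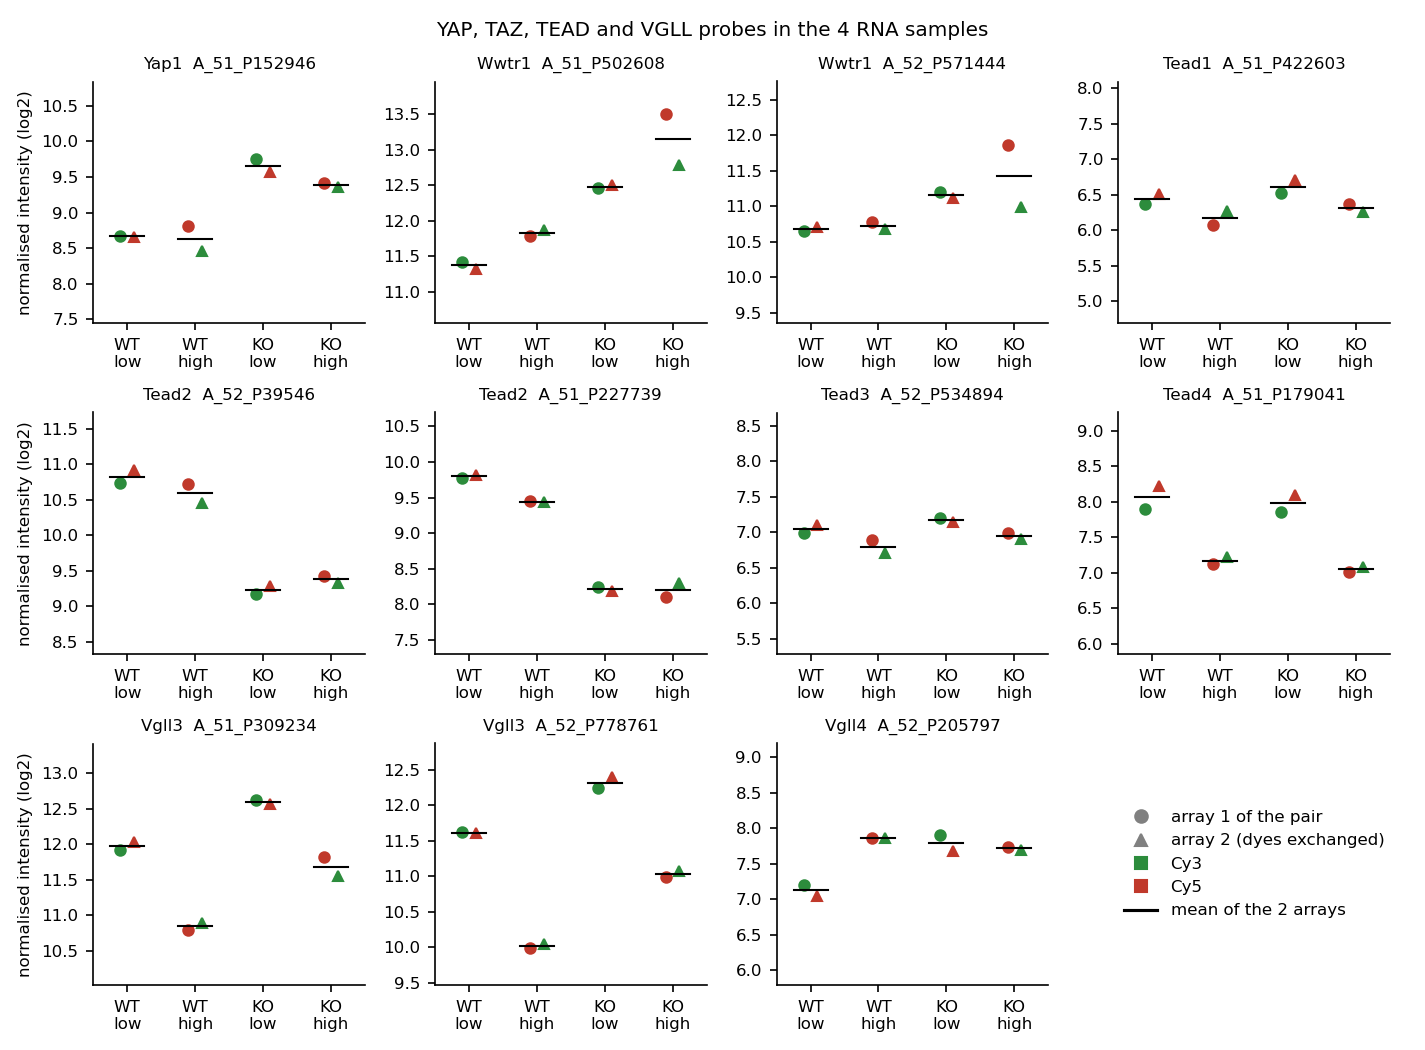
Normalised log2 intensity (vertical axis, each panel spanning the same range) of the 11 probes in the 4 RNA samples (horizontal axis). Circles and triangles are the first and second array of a pair, green is Cy3, red is Cy5, and bars are the mean of both. Vgll3 drops from low to high density in both genotypes, Tead2 is lower in KO, and the triangle and circle of Wwtr1 in KO at high density lie apart (12.79 and 13.51).

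Yap1, the coactivator itself, was read by probe A_51_P152946 (chr9:7933061-7933120, minus strand, mm8). Its level was 8.67 and 8.66 in WT at low density, 8.81 and 8.45 in WT at high density, 9.75 and 9.57 in KO at low density and 9.42 and 9.36 in KO at high density. Both KO samples lay above both WT samples on every array, and the WT densities overlapped. The density difference (high over low) was -0.03 in WT, with opposite signs on the arrays (0.15 and -0.21), and -0.27 in KO (-0.33 and -0.21). The genotype difference (KO over WT) was 0.99 at low density (1.08 and 0.90), just under 2-fold, and 0.76 at high density (0.60 and 0.91).

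TAZ is the paralogue of YAP and was read by 2 Wwtr1 probes. The brighter, A_51_P502608 (chr3:57546558-57546617, minus strand), gave 11.42 and 11.33 in WT at low density, 11.79 and 11.87 in WT at high density, 12.46 and 12.50 in KO at low density, and 13.51 and 12.79 in KO at high density. The 4 samples did not overlap in any neighbouring pair of this order. Wwtr1 was higher in KO at both densities, by a log2 of 1.11 at low density (1.05 and 1.17, 2.15-fold) and by 1.32 at high density (1.72 and 0.92, 2.49-fold). The latter rested on the first arrays, since without the first KO or the first WT array it was 0.92, under 2-fold. With density the log2 difference was 0.46 in WT (0.37 and 0.54) and 0.67 in KO (1.04 and 0.29).

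The other Wwtr1 probe, A_52_P571444, is listed across 3468 bases (chr3:57547017-57550484), which exceeds the 60 bases covered by most member probes. It gave smaller differences, 0.48 (0.55 and 0.41) and 0.70 (1.09 and 0.32) between genotypes at low and high density, past 2-fold in the latter on the first arrays alone, and 0.04 in WT and 0.27 in KO with density. Its arrays differed in sign for density in WT (0.12 and -0.03) and in KO (0.66 and -0.12). The probes of Wwtr1 thus shared the order of the 4 samples but not the size, and 1 of 2 passed the 2-fold rule between genotypes on the mean of both arrays.

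Among the TEAD factors, which bind DNA and recruit YAP or TAZ, Tead2 differed most between genotypes. Probe A_52_P39546 (chr7:45101486-45101545, plus strand) read 10.73 and 10.92 in WT at low density, 10.73 and 10.46 in WT at high density, 9.17 and 9.29 in KO at low density, and 9.43 and 9.33 in KO at high density. All WT values lay above all KO values, while the densities of WT nearly met on the first array. Tead2 was lower in KO by 3.03-fold at low density, a log2 difference of -1.60 (-1.56 and -1.63), and by 2.31-fold at high density (-1.21). The other probe, A_51_P227739 (chr7:45100284-45100343), gave -1.58 and -1.24, so that both probes passed the rule at both densities. Without scaling between arrays both were under 2-fold at high density. With density the first probe gave -0.23 in WT (-0.01 and -0.46) and 0.15 in KO (0.27 and 0.04), and the second gave -0.36 in WT and -0.02 in KO.

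Tead4 was read by probe A_51_P179041 (chr6:128192978-128193037, minus strand). It gave 7.90 and 8.22 in WT at low density, 7.12 and 7.22 in WT at high density, 7.86 and 8.10 in KO at low density, and 7.02 and 7.09 in KO at high density. Both genotypes were lower at high density on every array and overlapped at low density. The log2 difference with density was -0.89 in WT (-0.78 and -1.0) and -0.93 in KO (-0.84 and -1.01), short of the 2-fold rule, and the genotypes differed by -0.08 and -0.12 (0.14 and 0.10 without scaling between arrays). The probe was dim, and the processed signals of the scanner software, which carry no added offset, gave -1.59 in WT and -1.62 in KO, past 2-fold in both.

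Tead3, read by probe A_52_P534894 (chr17:28060366-28060542, minus strand), ranged from 6.71 to 7.21 over the 8 channels. Its density difference was -0.25 in WT (-0.09 and -0.40) and -0.23 in KO (-0.22 and -0.23), and -0.67 and -0.50 under the scanner software signals. Between genotypes it gave 0.13 at low density (0.22 and 0.03) and 0.15 at high density (0.09 and 0.20). None reached 2-fold.

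Tead1 was not well above background in WT at high density on either array, and in WT at low density on 1 array of 2. Its probe A_51_P422603 (chr7:112690667-112690726, plus strand) was above it in KO on both arrays at low density and on 1 at high density. Its level was 6.37 and 6.51 in WT at low density, 6.07 and 6.28 in WT at high density, 6.53 and 6.71 in KO at low density, and 6.37 and 6.26 in KO at high density. With so few channels above background no fold is given in WT or between genotypes at high density, where the dyes differed in sign (0.29 and -0.02). In KO the log2 difference with density was -0.30 (-0.16 and -0.45), and under the scanner software signals it was -1.74.

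Vgll3, a TEAD cofactor, had the largest density difference among the members in each genotype as processed here, at its probe A_52_P778761. Under the scanner software signals Tead4 in KO was larger (-1.62), as was Tead1 (-1.74), which was above background in KO at high density on 1 array of 2. That probe (chr16:65784513-65784572, plus strand) read 11.62 and 11.61 in WT at low density, 9.98 and 10.05 in WT at high density, 12.24 and 12.40 in KO at low density, and 10.99 and 11.07 in KO at high density. No neighbouring samples overlapped. It fell with density by 1.60 on the log2 scale in WT (-1.64 and -1.55 on the arrays, 3.03-fold) and by 1.29 in KO (-1.25 and -1.33, 2.44-fold). More than 95% of measured probes moved less than it in either genotype (95.5% in WT and 95.01% in KO).

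The brighter Vgll3 probe, A_51_P309234 (chr16:65779802-65779861), fell by 1.13 in WT (-1.12 and -1.14) and gave -0.91 in KO (-0.81 and -1.02), beside -0.93 for Tead4. Between genotypes the probes gave 0.62 and 0.70 at low density and 0.84 and 1.01 at high density. Only the last, that of A_52_P778761 (1.01 and 1.02 in the dyes), passed the rule.

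Vgll4, a TEAD cofactor that competes with YAP, was the member whose density differences were farthest apart between genotypes. Probe A_52_P205797 (chr6:114886951-114887010, minus strand) read 7.20 and 7.05 in WT at low density, 7.85 and 7.86 in WT at high density, 7.90 and 7.68 in KO at low density, and 7.73 and 7.69 in KO at high density. The WT culture at low density lay below the other three samples on both arrays, while the KO densities overlapped. The density difference was 0.74 in WT (0.66 and 0.81) and -0.08 in KO (-0.17 and 0.01). Their difference, KO minus WT, was -0.81 (-0.82 and -0.80), which 87.9% of measured probes did not reach in size. It passed 2-fold with an offset of 10 (-1.10) or the scanner software signals (-1.25). KO lay above WT by 0.67 at low density (0.71 and 0.63) and below it at high density by a log2 difference of -0.15 (-0.12 and -0.17), which was 0.08 without scaling between arrays.

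**Figure D2:**
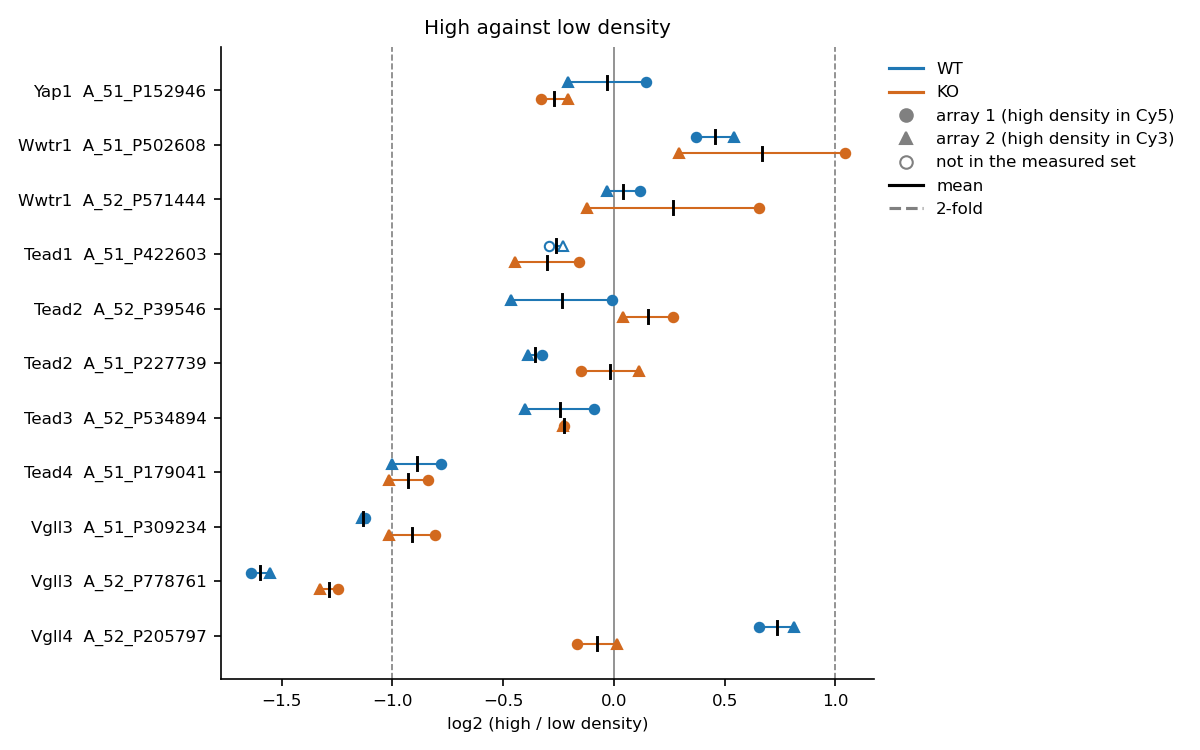
Log2 difference of high over low density (horizontal axis) for each member probe in WT and KO. Circles and triangles are the arrays of a pair, open where the probe was not in the measured set, ticks are their mean and dashed lines mark 2-fold. Vgll3 lies near or past 2-fold in both genotypes (-1.60 and -1.29 at A_52_P778761), Tead4 just inside it, and Vgll4 differs between WT (0.74) and KO (-0.08).

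By the 2-fold rule 2 of 10 measured member probes fell with density in WT and 0 rose, where 13.3% of 22591 measured probes changed. In KO 1 of 11 fell and 0 rose, where 9.63% of 23593 changed. All of these were Vgll3 probes. The median over the brightest probes of the 7 genes measured in WT was -0.23, beside 0.01 over all measured probes, and over the 8 genes in KO it was -0.25, beside 0.01. Over all 11 probes the WT median was -0.25, and it was -0.39 without the first and -0.09 without the second WT array. The sign was the same on both arrays for 9 of 11 probes in WT and 8 of 11 in KO.

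No member probe passed the rule for the difference of the density effects, 0 of 10, where 7.99% of 21543 measured probes passed. At low density 1 of 11 member probes was higher in KO (Wwtr1) and 2 were lower (both Tead2), where 13.9% of 23336 differed. At high density 2 of 10 were higher (Wwtr1 and Vgll3) and 2 lower (Tead2), where 13% of 23614 differed. Without scaling between arrays these became 2 higher and 2 lower at low density, and 4 higher and 0 lower at high density. At low density the members' median was 0.40, and at high density 0.15, against 0.04 over all measured probes at both. Over all 11 probes the median at high density was 0.15, and it was 0.29 on the first arrays and 0.20 on the second arrays. It was 0.37 without scaling between arrays, and at low density the median over all 11 probes went from 0.48 to 0.77. The median of all measured probes was then 0.27 at both densities.

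**Figure D3:**
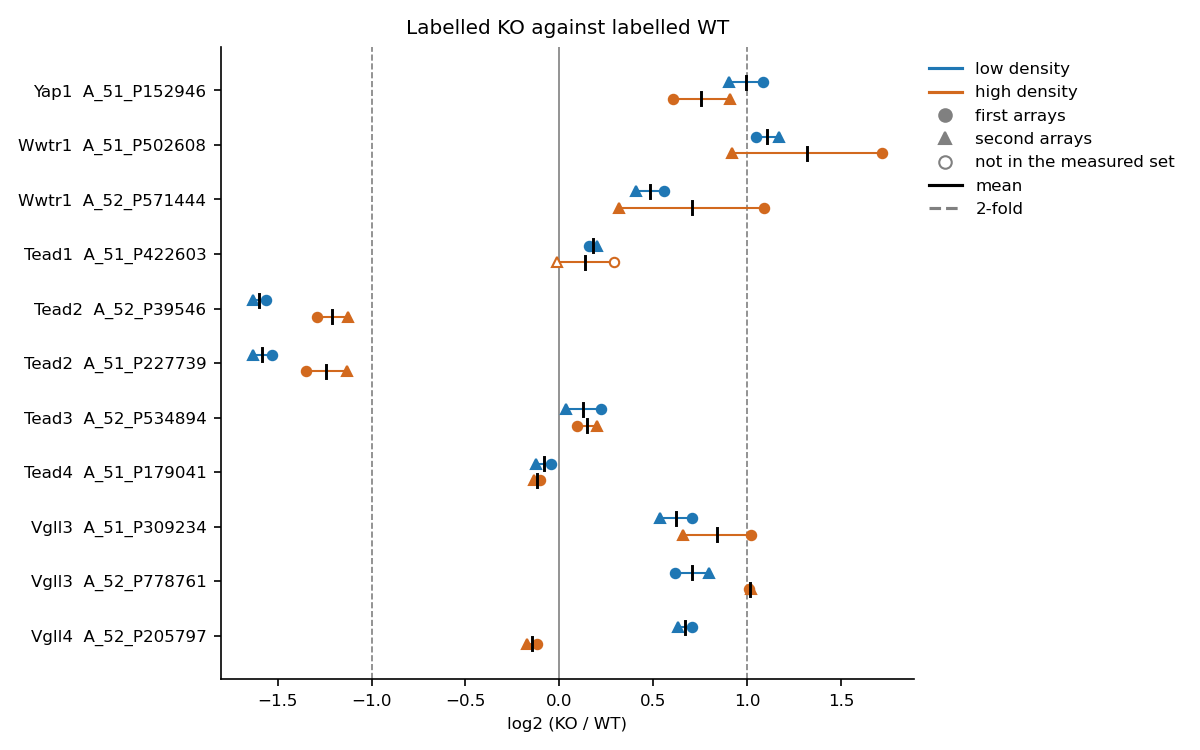
Log2 difference of arrays labelled KO over those labelled WT (horizontal axis) for each member probe at low and high density. Circles and triangles compare the first arrays and the second arrays of the pairs, each within 1 dye, ticks are their mean and dashed lines mark 2-fold. Both Tead2 probes lie beyond 2-fold below 0 at both densities (-1.60 and -1.21 at A_52_P39546), and Wwtr1, Yap1 and Vgll3 lie above 0.

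The only test that the design allowed took the genotypes as 2 replicates of a density effect common to both. In limma 0 of 21543 probes passed an adjusted p of 0.05 (0%), with 6390 under an unadjusted p of 0.05 and a lowest adjusted p of 0.0672. The methods' t-test, at 2-fold and an unadjusted p of 0.05, called 433 probes and 0 after Benjamini-Hochberg adjustment. Among the members the Vgll3 probe A_52_P778761 gave -1.44 ± 0.18 (SE) with a limma adjusted p of 0.0721, and A_51_P309234 gave -1.02 ± 0.17 with 0.0771. Neither passed. Tead4 gave -0.91 ± 0.16 with a limma adjusted p of 0.0791, did not pass either, and lay below 0 in 2 of 2 genotypes. Wwtr1 A_51_P502608 gave 0.56 ± 0.17 with a limma adjusted p of 0.1325, and the other tested members gave limma adjusted p-values between 0.3764 and 0.9019. Tead1 was not in the tested set. These p-values measure the spread between the genotypes.

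The processing moved the dim and the borderline members, and also bright ones under median centring or without scaling between arrays. Under the scanner software signals 4 member probes passed the rule for density in WT (both Vgll3 probes, Tead4 at -1.59 and Vgll4 at 1.07) and 3 in KO (Vgll3 A_52_P778761, Tead4 and Tead1). Of these, Tead1 was well above background in KO at high density on 1 array of 2. Without scaling between arrays (Aquantile) the median of all measured probes in KO over WT lay at a log2 of 0.27 at both densities, against 0.04 with it, and Yap1 was 1.24 and 1.01 and Tead2 A_52_P39546 was -1.32 and -0.93. Both Tead2 probes were then under 2-fold at high density (A_51_P227739 at -0.99). Under median centring the density split of all calls turned, from 1723 higher and 1290 lower to 1401 and 1790 in WT, and from 1392 and 879 to 1024 and 1514 in KO. Vgll3 A_52_P778761 was then -1.80 in WT and -1.63 in KO, and Wwtr1 A_51_P502608 was 0.23 and 0.24.

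**Figure D4:**
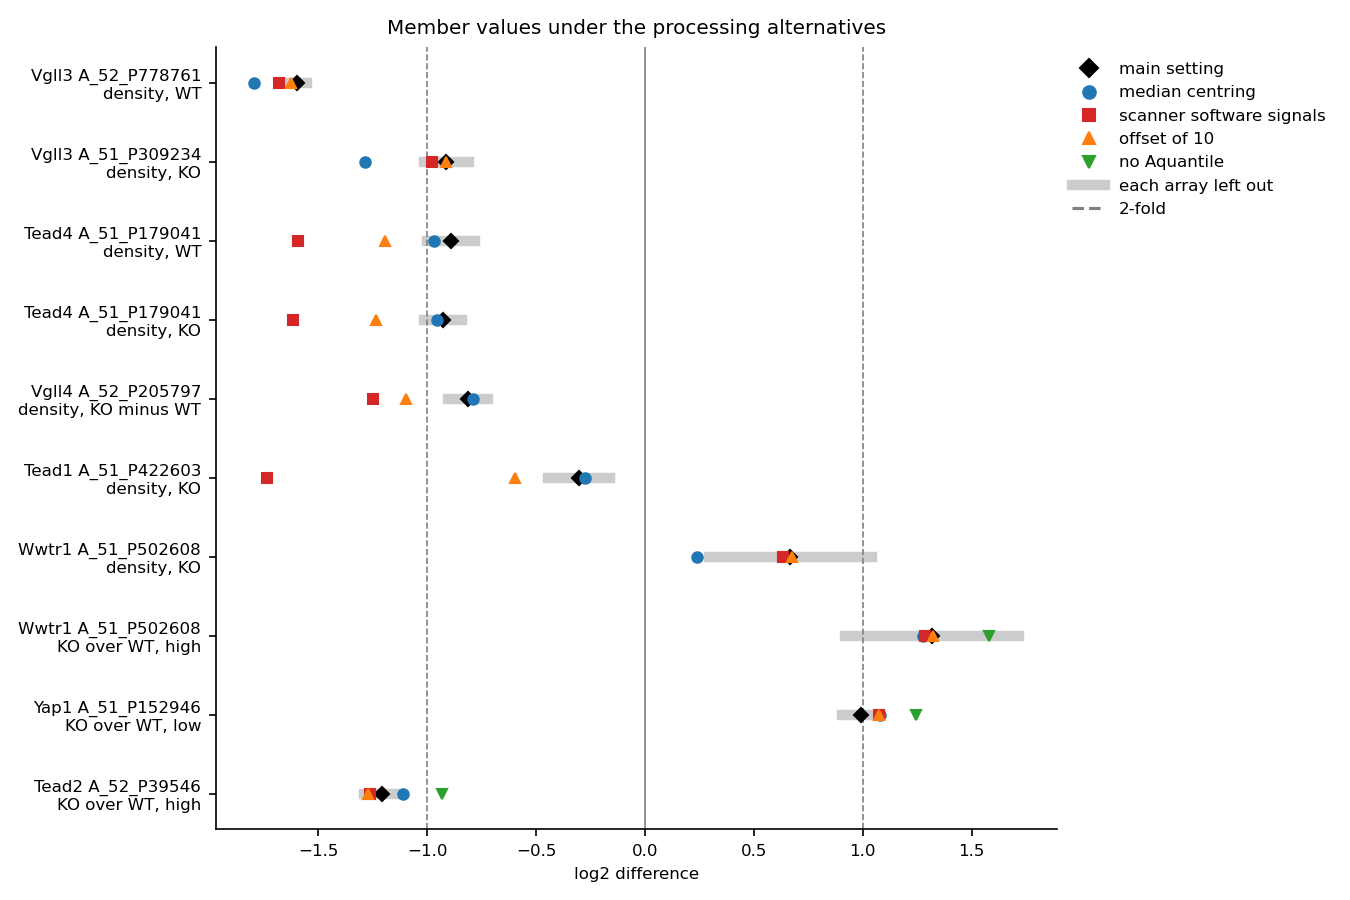
Selected member values (log2 difference, horizontal axis) under the main setting and 4 alternatives, with grey bars spanning the values when each array is left out and dashed lines at 2-fold. Tead4, Vgll4 and Tead1 move outward with a smaller offset or the scanner software signals (Tead1 in KO from -0.30 to -1.74), and Wwtr1 spreads most when an array is left out.

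The genes whose levels over the 4 RNA samples lay nearest to each member, by Euclidean distance of profiles centred on their own mean, were taken among 9315 other genes well above background in all channels. Nearest to Yap1 were Rab31 (distance 0.058), Ptprg (0.0941) and Zbtb44 (0.0951). Nearest to Wwtr1 were Thrap2 (0.0732), Stard9 (0.1004) and Ptms (0.1094). Tead2 lay nearest to Ptprk (0.1551), Vegfa (0.1582) and Sympk (0.1606), and Tead4 near Pawr (0.0605) and Rars (0.0713). Vgll3 lay nearest to Loxl3 (0.0509), Sh3bp4 (0.1132) and Rb1cc1 (0.1266). With 4 points a profile, many genes are close, and the distances are a description.

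Of the kinase module upstream of YAP and TAZ, 14 genes were measured. With density 0 rose and 2 fell in WT (Lats2 at -1.13 and Wwc2 at -1.01) and 2 fell in KO (Wwc1 at -1.66 and Lats2 at -1.02), with medians of -0.19 in both. Of the 4 Lats2 probes 2 passed the rule with density in WT (the others gave -0.91 and -0.56) and all 4 in KO. The counts of genes lay near the share of all measured probes that changed (13.3% in WT and 9.63% in KO). In KO over WT 3 were higher at low density, Lats1 by 1.47, Lats2 by 1.38 and Wwc1 by 1.27, where 13.9% of all measured probes differed. At high density, where 13% differed, 3 were higher and Stk3, which encodes the kinase MST2, was lower by a log2 difference of -1.12. At high density Lats1 was not well above background in WT and was at least 2.09-fold higher in KO.

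Of 17 genes whose products bind YAP or TAZ or hold them outside the nucleus, 1 rose and 4 fell with density in WT (13.3% of all measured probes changed), and 2 fell in KO (9.63% changed). In WT these included Ajuba (-2.58), a LIM protein that inhibits LATS kinases, and the angiomotin genes Amot (1.82) and Amotl2 (-1.80). In KO they were Amotl2 (-1.18) and Ywhaz (-1.08). Over the list the WT median was -0.39 and the KO median -0.14. Amot was the gene that rose in WT, and its relative Amotl2 fell in both genotypes. Between genotypes, 1 gene was higher in KO at low density (Amotl2, 1.22) and 1 was lower, and 3 were higher at high density (Amotl2 1.84, Ajuba 1.43 and Ywhah 1.09), where 13.9% and 13% of all measured probes differed.

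Among 8 genes of YAP and TAZ turnover, 0 changed with density in either genotype, where 13.3% of all measured probes changed in WT and 9.63% in KO. Csnk1e, a casein kinase gene, was lower in KO at low density (-1.03), where 13.9% differed. Of 5 measured genes in the list of other VGLL and TEAD cofactors, Ncoa1, a coactivator gene, rose in WT (1.22). Nuak2, a kinase gene that stands in the list of target genes too, fell in WT (-1.47) and in KO (-1.40). Both stand beside the same shares of all probes. Ncoa1 was also higher in KO at low density (1.14). Vgll1 and Vgll2, which belong to the same family as Vgll3, were well above background in no channel.

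Among AP-1 and SRF genes, whose factors share target sites with TEAD or respond to the same cues, 2 of 7 fell with density in WT (Srf at -1.52 and Junb at -1.0) and 2 of 8 in KO (Fosl1 at -2.31 and Junb at -1.07), with 0 rising, where 13.3% and 9.63% of all measured probes changed with density. Their medians were -0.62 and -0.58. In KO over WT, 1 of 8 was higher (Fos, 1.12) and 1 lower (Junb, -1.48) at low density, and 2 of 7 were lower at high density (Fosl1 at -2.12 and Junb at -1.55), where 13.9% and 13% of all measured probes differed. The medians were -0.48 and -0.46. Among other transcription factors known to bind YAP or TAZ, 1 of 12 fell with density in WT (Smad7 at -1.64) and 2 of 13 in KO (Smad7 at -1.78 and Pparg at -1.53), near the shares for density. Between genotypes Pax3 was at least 6.06-fold higher in KO at low density and at least 5.39-fold at high density, with WT not well above background. Tcf7l2 was higher by 1.52 and 1.21, and Pparg by 2.10 at low density. Pax8 was lower in KO by at least 2.42-fold at low density and at least 2.58-fold at high density, with KO not well above background. In all, 3 of 14 were higher and 1 lower at low density (13.9% of all measured probes differed), and 2 of 14 higher and 1 lower at high density (13%).

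Of 32 YAP and TAZ target genes measured with density in WT, 2 rose and 15 fell, with a median of -0.88, where 13.3% of all measured probes changed. Of 32 in KO, 4 rose and 12 fell, with a median of -0.66, where 9.63% changed. Ctgf, Cyr61 and Ankrd1, the secreted and nuclear proteins most used as readouts of YAP activity, fell, with log2 differences of -5.77, -2.98 and -3.34 in WT and of -3.25, -1.35 and -2.76 in KO. Thbs1, a matrix glycoprotein, fell in both genotypes (-3.45 in WT and -1.63 in KO). Of the target genes that rose, Igfbp3 in KO was farthest from 0 (3.68). In KO over WT, 8 of 33 were higher at low density and 1 was lower (Cyr61, -1.47), and 15 of 32 were higher and 2 lower at high density, where 13.9% and 13% of all measured probes differed. Igfbp3 was at least 19.8-fold higher in KO at low density and at least 245-fold at high density, with WT not well above background. Of these target genes 6 stand in another of the lists as well. Like the other lists, this one was chosen with earlier results of these data known, so its counts are a description. In the same samples the density differences of Yap1 and both Wwtr1 probes were under 2-fold on the mean of both arrays. Wwtr1 A_51_P502608 lay above 0, at 0.46 in WT and 0.67 in KO, with 1.04 on the first KO array.

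**Figure D5:**
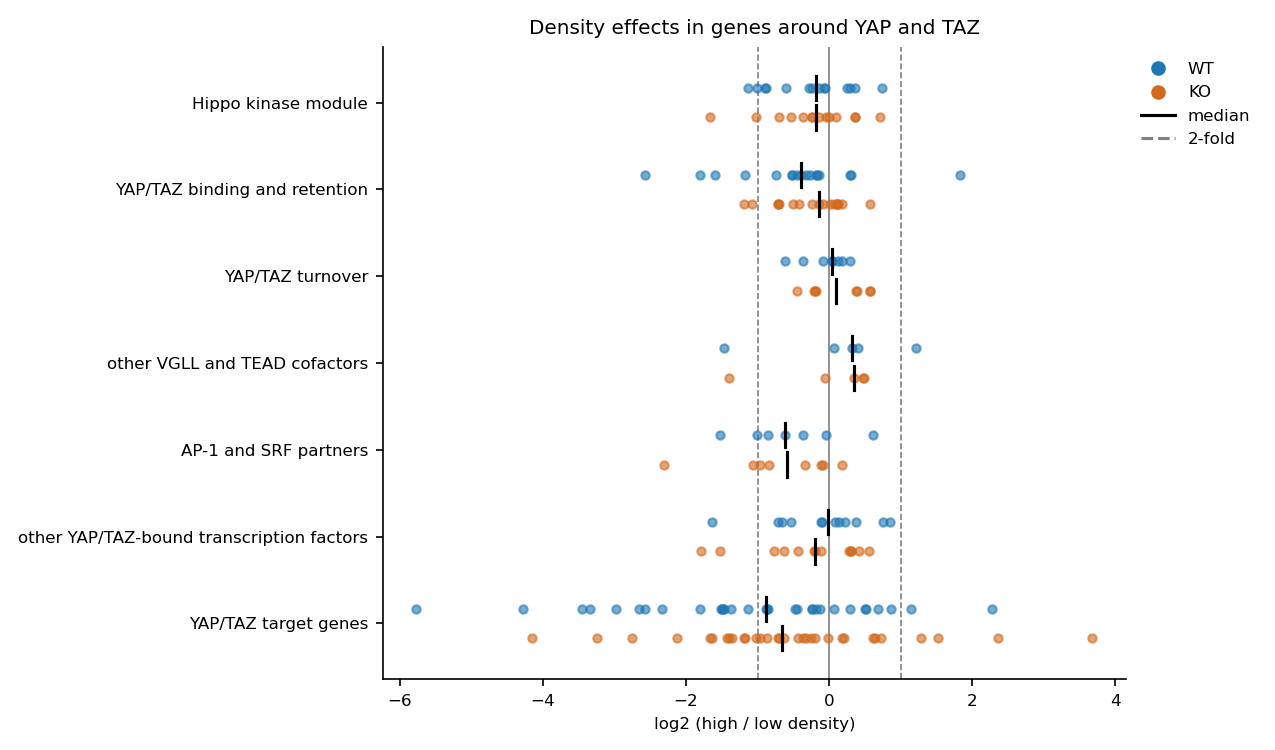
Log2 difference of high over low density (horizontal axis) for the measured genes of 7 lists around YAP and TAZ, each gene by its brightest probe, in WT and KO, with the list median as a bar and dashed lines at 2-fold. The target genes reach -5.77 and have medians of -0.88 and -0.66, while the turnover genes all lie within 2-fold.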

How the data were processed

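Members were the probes, outside the controls, whose array symbol is one of the 8 names. Members and gene lists were chosen with earlier results of these data known. The authors extracted the arrays with Agilent Feature Extraction (10.5.1.1 per the labels), and the deposited scanner files hold raw Cy3 and Cy5 intensity, background, quality flags and processed signals. The deposited log10 ratio in the series table matched that of the scanner files within 0.005, with swapped arrays turned to high over low density. Raw intensity was corrected by normexp (offset 50), normalised by loess and, between genotypes, by Aquantile, in R 4.3.3 with limma 3.58.1, with outlier features dropped. The offset shrinks differences of dim probes. Measured probes were well above background on both arrays at either density, or in both dyes in either genotype. Genes in lists were read at their brightest probe. Probe positions are mm8, per the array annotation, and exons were not assigned, since the annotation used was of GRCm38.p6. Of 11 probe accessions 9 matched RefSeq, all to the same symbol.

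Named were all members with every probe, Lats2, Lats1, Ctgf, Cyr61 and Ankrd1, up to 4 of the largest called changes per list and contrast, and the 3 nearest genes to each member spanning a log2 of 1. Some genes that this rule names are not reported here. The number of arrays limits the precision, and the spread between the arrays of a pair (SD of a single array 0.139 in WT and 0.203 in KO for density, on the log2 scale) is technical only. Python 3.11.15 with scipy 1.17.1 was used for the t-test and counts.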

Additional observations from a re-analysis of the deposited data

Results flagged for a closer look

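The genotype difference of Vgll4 (A_52_P205797) was above 0 in both dyes at low density and below 0 in both at high density, a change of -0.81 on the log2 scale. The difference was not tested, and without scaling between arrays both values were above 0 (0.89 and 0.08). Of the non-member genes only Lats1, Lats2, Ctgf, Cyr61 and Ankrd1 were examined in this way, and the opposite held for Ctgf and Cyr61, below 0 in both dyes at low density and above 0 in both at high density. Ctgf (A_51_P157042) went from -0.48 to 2.03, a change of 2.52, and Cyr61 (A_51_P252859) from -1.47 to 0.16, a change of 1.63, likewise not tested. At high density Cyr61 gave only 0.08 and 0.23 in the dyes, where the technical SD of a pair mean was 0.148. The density difference of Tead2 (A_52_P39546) was below 0 on both WT arrays and above 0 on both KO arrays, by 0.39 between them, which was not tested. Its first WT array was at -0.01. The other Tead2 probe had opposite signs on the KO arrays (-0.15 and 0.11).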

How the results depend on the processing

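The member count for density in WT (2 probes) was 4 with the processed signals of the scanner software, 4 with the series table and 4 at a 1.4-fold threshold. In KO (1 probe) it was 2 with median centring, 2 with an offset of 10, 3 with the processed signals, 3 with the series table and 4 at 1.4-fold. For the difference of the density effects (0 probes) it was 1, Vgll4, with the processed signals, the series table, an offset of 10 or a 1.4-fold threshold. Between genotypes it went from 3 to 5 at low density with the processed signals, and at 1.4-fold to 7 at low density and from 4 to 7 at high density. Leaving out each array in turn gave 2 to 3 probes for density in KO (3 without KO replicate 1, where Tead4 at -1.01 and Vgll3 A_51_P309234 at -1.02 joined, and 2 without KO replicate 2, where Wwtr1 at 1.04 joined). At high density between genotypes it gave 3 to 6, Wwtr1 being under 2-fold (0.92) without KO replicate 1 or WT replicate 1, either of which leaves the second arrays alone. No called member value changed sign under any alternative run.

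Over all probes the counts with the processed signals and at 1.4-fold were 5829 and 8576 for density in WT (5824 with the series table), 4865 and 8164 in KO (4857), 3150 and 6124 for their difference (3148), 6304 and 9391 between genotypes at low density, and 5881 and 8874 at high density. Without Aquantile 72.3% of the calls at low density and 70.2% at high density were higher in KO, against 49.3% and 49.2%. The limma count of 0 became 286 with the processed signals, 301 with the series table, 325 with an offset of 10, 194 with probes well above background in every channel and 433 by the unadjusted t-test of the methods, and ranged from 0 to 149 with each array left out (149 without KO replicate 1, 78 without WT replicate 1). No member was among these limma calls, the limma adjusted p of Vgll3 A_52_P778761 ranging from 0.0525 to 0.1429. Of the single member values recomputed, 485 moved by less than the SD of a single array and 91 by more. The former include 55 values under each of 3 settings that change only which probes count and left every member value as it was (both filters on dim probes and the kept outlier flags). The member values of the common density effect are not among them. Each kept its side of the threshold, and the value of Wwtr1 A_51_P502608 went from 0.56 to 0.23 under median centring. The cause was not tested. The mean over the probes of a gene was not run for the limma test, which was made per probe. Densities were compared within each array and genotypes within each dye, and a further block on replicate number was not run, since the labels number no replicates.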
